A study of Homo sapiens with 6 samples.

Results

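The genes described here encode the proteasome and the factors that help to build it. They were taken by symbol, as every gene whose name is PSMA, PSMB, PSMC, PSMD, PSME, PSMF or PSMG followed by a number. The rule found 47 of the 29476 genes in the deposited table: 7 PSMA genes, 11 PSMB genes, 6 PSMC genes, 14 PSMD genes, 5 genes of the PSME and PSMF names and 4 PSMG genes. RNA was sequenced from A549, an established human lung adenocarcinoma cell line. The 6 libraries fall into 2 treatments by lipid transfection: a negative control siRNA (si-NC, libraries 4, 5 and 6) and si-NORAD (libraries 4, 5 and 6), which targets NORAD, a long noncoding RNA. The series text gives the role of NORAD in epithelial-mesenchymal transition as the question. The labels name no separate cultures for libraries with 1 treatment. Each p-value therefore sets a difference against library-to-library spread alone, and that spread may be technical.

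The proteasome degrades proteins that carry ubiquitin chains. Its core particle (20S) is a barrel of 4 stacked rings, with outer rings of PSMA (alpha) subunits that gate the entrance and inner rings of PSMB (beta) subunits, some of which hold the proteolytic sites. The regulatory particle (19S) caps the barrel: PSMC ATPases unfold substrates and thread them into the core, and PSMD subunits bind and remove ubiquitin and hold the cap together. PSME proteins form other caps, PSMF1 is an inhibitor of the core, and PSMG proteins are chaperones of core assembly. Interferon induces alternative catalytic subunits that make up the immunoproteasome, which favours peptides for antigen presentation.

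Total counts ran from 19332334 to 32760606 per library. The si-NC libraries 4, 5 and 6 held NORAD at 550, 461 and 423 CPM (counts scaled by library total and TMM factor), and the si-NORAD libraries 4, 5 and 6 held 359, 372 and 400 CPM. These groups did not overlap, but the log2 fold change of -0.34 (SE 0.11) missed the threshold, with an adjusted p of 0.196 by edgeR's quasi-likelihood test with Benjamini-Hochberg adjustment. The fitted ratio of si-NORAD to si-NC was 0.789. The 5 epithelial markers of A549 (KRT8, KRT18, KRT7, EPCAM and CDH1) were expressed, with a summed level of 5605 to 8419 CPM in si-NC and 5741 to 5955 CPM in si-NORAD. Keratins made up most of this sum, with KRT8 at 2595 to 4225 CPM over the 6 libraries. EPCAM was low, at 3.28 to 6.11 CPM, and CDH1 was at 22.8 to 28.5 CPM. Retina is named by the extraction protocol, and the summed level of the 6 retina markers found was 0.839 to 1.44 CPM over the 6 libraries. si-NC 4 stood apart from the other si-NC libraries, and the counts over members, and the list genes named, are therefore also given with si-NC libraries left out. NORAD had a log2 fold change of -0.55 without si-NC 5 and si-NC 6.

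Levels of different genes are given on the FPKM scale that the authors deposited, which divides by the summed exon length of a gene, not by a transcript length. PSMA4 and PSMA7 had like counts, at 291 and 295 CPM in si-NC 4. Their FPKM there was 42.4 and 172, with 6996 and 1750 exon bases. Every FPKM level, sum, share and ratio below therefore depends on annotated exon length as well as on RNA. PSMA7, an alpha ring subunit, had the highest median over the 6 libraries, 175 FPKM, followed by PSMB3, a structural beta subunit, at 171 FPKM. The alpha ring genes summed to 285, 362 and 389 FPKM in si-NC 4, 5 and 6 and to 280, 283 and 277 FPKM in si-NORAD 4, 5 and 6. si-NC 5 and si-NC 6 were the high libraries there, and si-NC 4 lay just above the si-NORAD libraries. Beta ring genes summed to 836, 1073 and 1155 FPKM in si-NC and to 816, 832 and 795 FPKM in si-NORAD, again with si-NC 4 nearest to the si-NORAD libraries. The ATPases summed to 315, 370 and 386 FPKM against 334, 330 and 330 FPKM, and the PSMD genes to 661, 738 and 726 FPKM against 672, 673 and 671 FPKM. For both of these sums si-NC 4 lay below every si-NORAD library. The ratio of the 19S sum to the 20S sum was 0.870, 0.772 and 0.721 in si-NC and 0.918, 0.899 and 0.934 in si-NORAD. The groups did not overlap in this ratio. Fold change also went with gene length, as described below, and the ratio was not corrected for that trend. The alpha sum includes PSMA1, PSMA2 and PSMA6, the beta sum PSMB10 and the PSMD sum PSMD9. The levels of these genes are uncertain, as described below, and so are the sums and the ratio as measures of RNA.

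**Figure D1:**
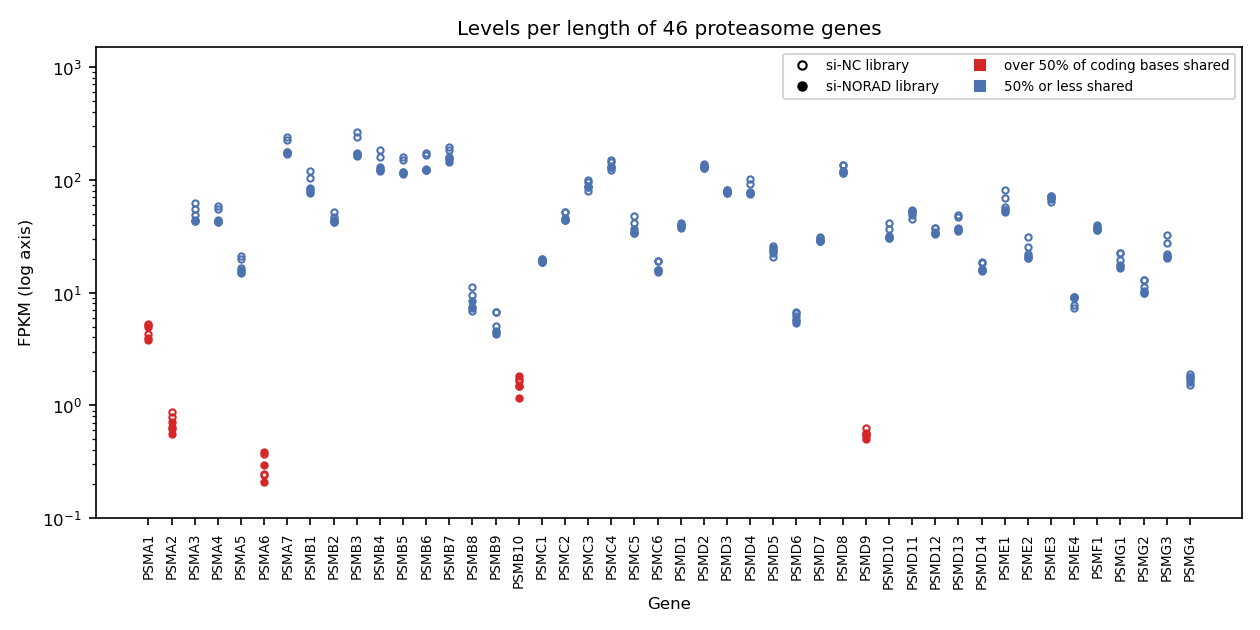
Level of each of the 46 tested proteasome genes in FPKM, as deposited by the authors, on a log axis. Open points are the 3 si-NC libraries and filled points the 3 si-NORAD libraries; red marks the 5 genes with over 50% of their coding bases inside exons of another gene on the same strand, whose medians run from 0.273 to 4.59 FPKM.

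5 members were listed far below the subunits they assemble with: PSMA1, PSMA2 and PSMA6 of the alpha ring, the interferon-inducible catalytic subunit PSMB10 and the 19S assembly factor PSMD9. Their median levels over the 6 libraries ran from 0.273 to 4.59 FPKM, with a middle value of 0.674 FPKM. The 41 other members with PSMB11 left out ran from 1.74 to 175 FPKM, with a middle value of 39.4 FPKM. In the GENCODE 29 annotation of GRCh38, each of the 5 has over 50% of its coding bases inside exons of a second gene model on the same strand: 88.6% for PSMA1, 97.1% for PSMA2, 70.4% for PSMA6, 58.3% for PSMB10 and 58.7% for PSMD9. This set was chosen after the levels were seen. Whether the counting left out reads that fit both gene models was not tested, because no source used here gives the counting mode. The low levels of these 5 genes are therefore uncertain as measures of their RNA. The runs below are 60 coding bases of each, identical letter for letter in a transcript of the second gene, so a read from them fits both gene models.
PSMA1 (with AC018523.2): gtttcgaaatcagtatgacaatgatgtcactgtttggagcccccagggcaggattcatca
PSMA2 (with AC010132.3): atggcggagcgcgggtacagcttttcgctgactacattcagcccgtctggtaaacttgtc
PSMA6 (with AL121594.1): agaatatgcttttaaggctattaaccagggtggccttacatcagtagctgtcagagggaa
PSMB10 (with AC040162.1): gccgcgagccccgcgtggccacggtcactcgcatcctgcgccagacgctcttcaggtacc
PSMD9 (with AC069503.2): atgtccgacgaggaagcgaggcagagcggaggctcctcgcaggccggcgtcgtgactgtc
The identical runs cover 89.0% of the coding bases of the PSMA1 transcript compared, 100% for PSMA2, 88.0% for PSMA6, 59.95% for PSMB10 and 64.7% for PSMD9. AL121594.1 had 0 to 3 reads per library and AC040162.1 had 16 to 41. The other three second genes were not analysed here. PSMB11, the catalytic subunit of the thymus proteasome, had 0, 0 and 2 reads in si-NC and 0, 1 and 0 reads in si-NORAD, and was the 1 member that did not pass the filter on low counts.

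No member passed the test. These are bulk libraries, in which fewer cells with an RNA and less of it per cell cannot be told apart. Of the 46 tested members, 0 were called by edgeR's quasi-likelihood test at an adjusted p under 0.05 (0.00645% of all 15515 genes were called), and their adjusted p ran from 0.196 to 0.967. By direction, 42 members had lower values in si-NORAD and 4 had higher values, while 49.1% of all genes tested were lower. The median log2 fold change of the members was -0.28, against 0.01 for all genes. At an unadjusted p under 0.05 there were 21 members, all lower in si-NORAD, where 21.6% of all genes passed in either direction and 12.1% were lower. In 14 members every si-NORAD library lay below every si-NC library (12.7% of all genes), and in PSMD11 and PSME4 every si-NORAD library lay above (12.7% of all genes). Summed over the 47 genes, the level was 7317, 8968 and 9215 CPM in si-NC 4, 5 and 6 and 7350, 7380 and 7276 CPM in si-NORAD 4, 5 and 6. si-NC 4 lay inside the si-NORAD range for this sum, so the groups overlapped.

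**Figure D2:**
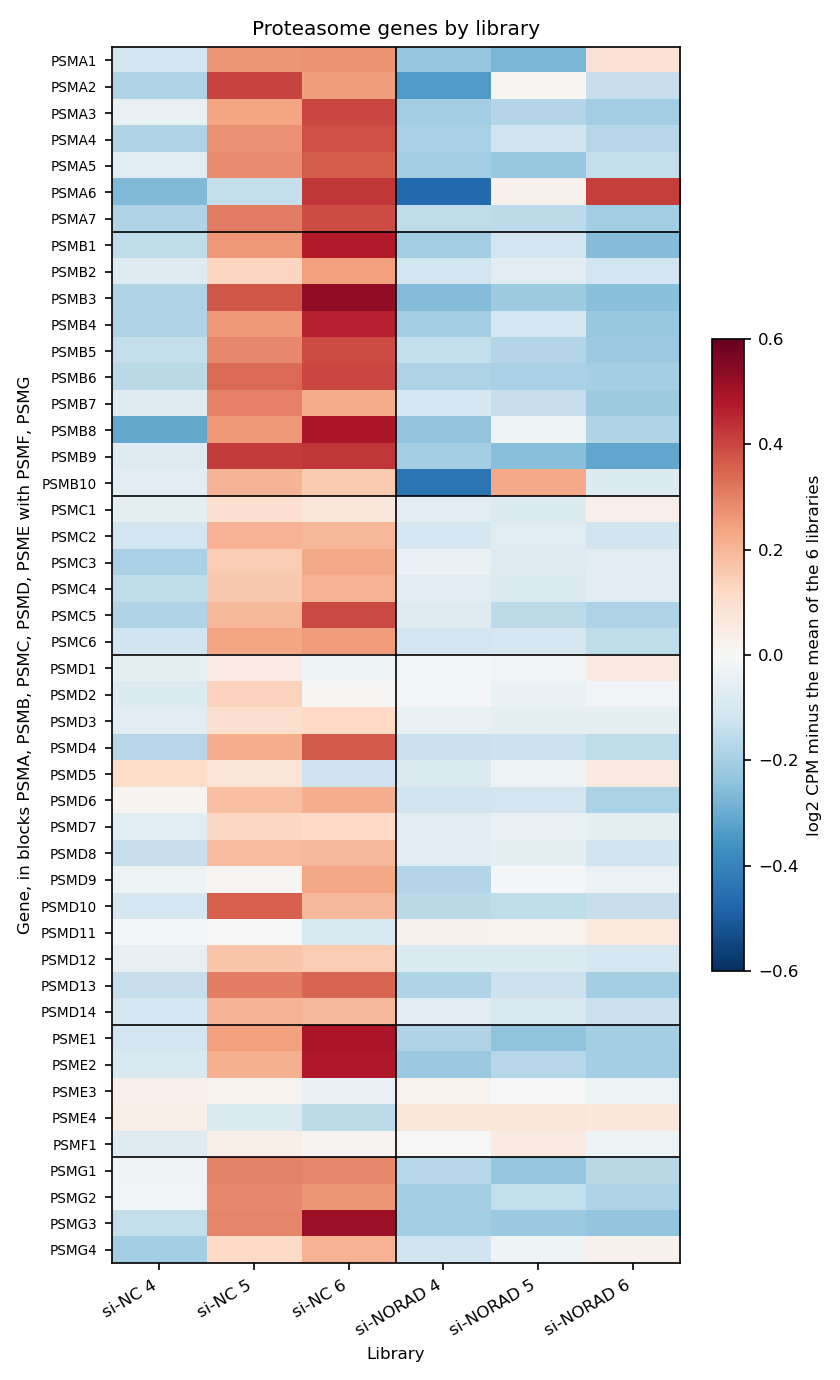
Expression of the 46 tested proteasome genes (rows, grouped by particle) in the 6 libraries (columns), as log2 CPM minus the mean of the 6 libraries. The columns of si-NC 5 and si-NC 6 stand above the other 4 for 38 of the 46 genes (28.0% of all genes tested). si-NC 4 lies inside the si-NORAD range for 17 (40.6% of all genes tested).

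The alpha ring genes all had lower values in si-NORAD (7 of 7, against 49.1% of all genes), with a median log2 fold change of -0.34. At an unadjusted p under 0.05 there were 4 of them, against 12.1% of all genes lower. PSMA3 was at 149, 180 and 202 CPM in si-NC 4, 5 and 6, against 132, 135 and 133 CPM in si-NORAD 4, 5 and 6. All si-NC libraries were above all si-NORAD libraries, with si-NC 4 nearest at 9.79% above the highest of them. The log2 fold change of PSMA3 was -0.41 (95% interval -0.65 to -0.16; edgeR adjusted p = 0.196). PSMA5 was at 93.2, 119 and 126 CPM against 85.1, 83.9 and 88.9 CPM, also without overlap, a log2 fold change of -0.39 (95% interval -0.65 to -0.14). PSMA7 was at 295, 413 and 439 CPM against 300, 300 and 290 CPM, a log2 fold change of -0.37 (95% interval -0.67 to -0.06). In PSMA7 the difference lay in si-NC 5 and si-NC 6, since si-NC 4 lay within the si-NORAD range. PSMA6, one of the genes with a second gene model, was at 1.55, 1.69 and 2.503 CPM against 1.35, 1.90 and 2.48 CPM, with overlap and an interval of -0.67 to 0.60.

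Beta ring genes had lower values in si-NORAD in 10 of 10 tested members (49.1% of all genes), with a median log2 fold change of -0.38. Of these, 7 had an unadjusted p under 0.05 (12.1% of all genes were lower at that p). The constitutive catalytic subunits PSMB5, PSMB6 and PSMB7 hold the chymotrypsin-like, caspase-like and trypsin-like sites. PSMB5 was at 203, 274 and 294 CPM in si-NC and 204, 199 and 193 CPM in si-NORAD, overlapping through si-NC 4, with a log2 fold change of -0.37 (95% interval -0.66 to -0.09). PSMB6 was at 177, 251 and 262 CPM against 174, 173 and 173 CPM, a log2 fold change of -0.41 (95% interval -0.71 to -0.10). PSMB7 was at 277, 361 and 342 CPM against 273, 266 and 253 CPM, a log2 fold change of -0.31 (95% interval -0.55 to -0.07). PSMB6 and PSMB7 did not overlap between groups, but si-NC 4 lay 1.66% and 1.39% above the highest si-NORAD library.

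The interferon-inducible subunits PSMB8, PSMB9 and PSMB10 replace PSMB5, PSMB6 and PSMB7 in the immunoproteasome. PSMB9 had the lowest log2 fold change of the members, -0.53 (SE 0.14, 95% interval -0.85 to -0.22; edgeR adjusted p = 0.196), from 15.2, 21.4 and 21.6 CPM in si-NC to 13.9, 13.4 and 12.9 CPM in si-NORAD. Its groups did not overlap, and si-NC 4 lay 9.47% above the highest si-NORAD library. PSMB8 was at 20.2, 29.98 and 35.1 CPM against 21.2, 24.6 and 22.05 CPM, with si-NC 4 below every si-NORAD library. PSMB10 was at 2.72, 3.28 and 3.18 CPM against 2.10, 3.33 and 2.69 CPM, with overlap and a log2 fold change of -0.20 (95% interval -0.66 to 0.26). PSMB8 and PSMB9 lie head to head on chromosome 6 and share 139 exon bases on opposite strands, and the antisense gene PSMB8-AS1 covers 20.6% of the exon bases of PSMB8. In these bases, reads of PSMB8 can be told apart from those of PSMB9 and PSMB8-AS1 only if counting used strand. PSMB8-AS1 also shares 174 exon bases (5.66%) with PSMB9 on the same strand, where strand does not separate the genes. PSMB8-AS1 had 1 to 10 reads per library. By FPKM, the inducible subunits made up 3.24%, 3.41% and 3.66% of the catalytic sum in si-NC and 3.17%, 3.63% and 3.39% in si-NORAD, with overlap. PSMB8 made up 5.53%, 6.06% and 6.57% of its sum with PSMB5 in si-NC and 5.79%, 6.80% and 6.30% in si-NORAD, with overlap. PSMB10 made up 0.937%, 0.869% and 0.889% of its sum with PSMB7 in si-NC and 0.735%, 1.19% and 1.01% in si-NORAD, also with overlap. PSMB10 is one of the genes with a second gene model, so this share and the inducible share that includes it are uncertain. PSMB9 with PSMB6 was the pair without overlap: PSMB9 made up 3.88%, 3.86% and 3.74% of its sum with PSMB6 in si-NC and 3.61%, 3.52% and 3.40% in si-NORAD.

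Among the structural beta subunits, PSMB3 was at 200, 294 and 328 CPM in si-NC and 189, 195 and 191 CPM in si-NORAD. Its log2 fold change was -0.51 (SE 0.16, 95% interval -0.87 to -0.16; edgeR adjusted p = 0.196). All si-NC libraries were above all si-NORAD libraries, with si-NC 4 only 2.32% above the highest. PSMB1, PSMB2 and PSMB4 had log2 fold changes of -0.41, -0.20 and -0.39, and each overlapped between groups.

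**Figure D3:**
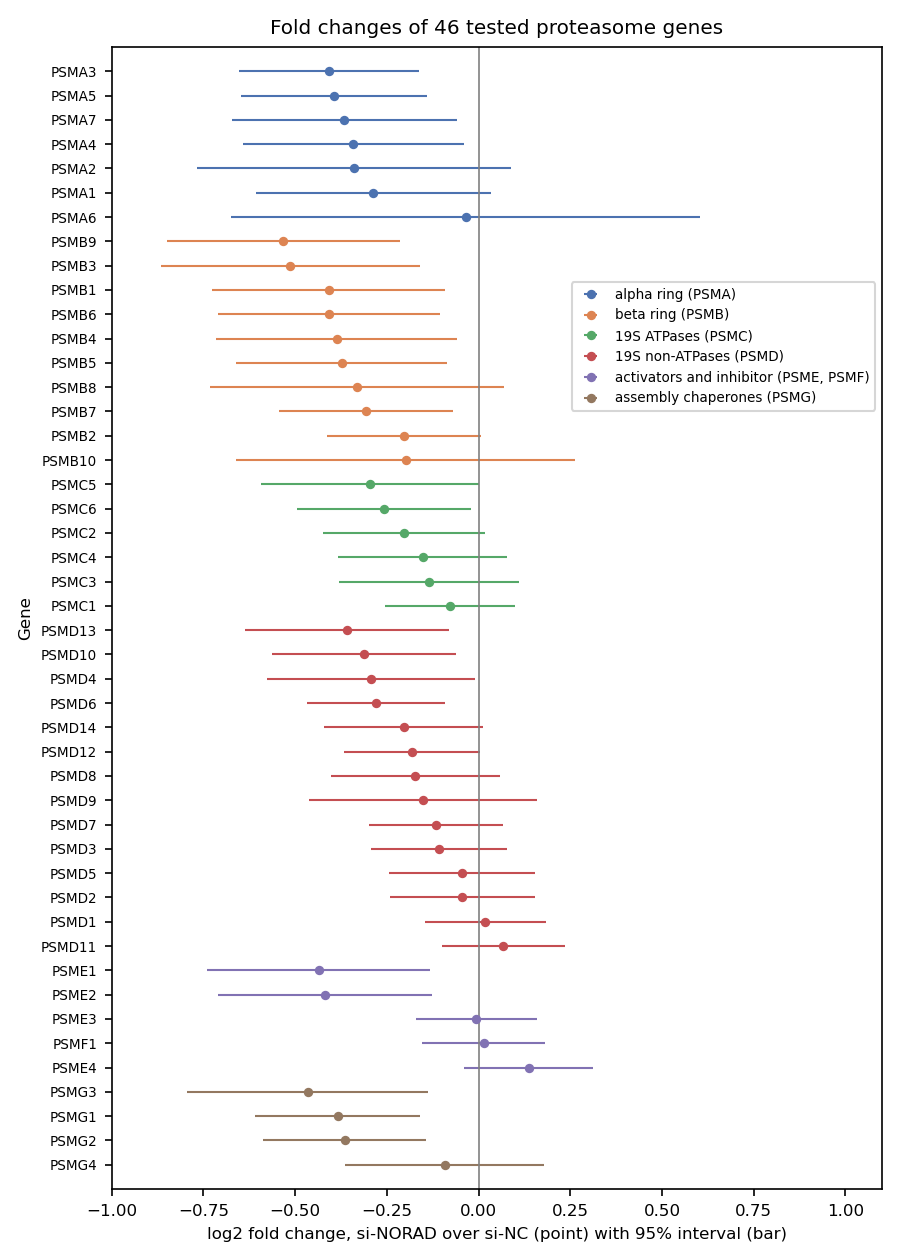
Log2 fold change of each of the 46 tested proteasome genes, si-NORAD over si-NC (points), with its 95% interval from the edgeR fit (bars), grouped by particle. The points lie left of 0 for 42 genes, and most of the core, chaperone and PSME1 and PSME2 points lie further left than those of the PSMC and PSMD genes.

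The PSMC ATPases of the 19S base had lower values in 6 of 6 (49.1% of all genes), with a median log2 fold change of -0.18. Only 1 had an unadjusted p under 0.05 (12.1% of all genes were lower at that p). That was PSMC6, at 115, 147 and 149 CPM in si-NC and 115, 116 and 112 CPM in si-NORAD, for a log2 fold change of -0.26 (95% interval -0.49 to -0.02). PSMC5 was at 148, 193 and 222 CPM against 160, 151 and 148 CPM, and PSMC2 at 153, 192 and 191 CPM against 154, 158 and 153 CPM. No ATPase had groups that did not overlap, because si-NC 4 lay within or below the si-NORAD range in all 6. PSMC1 was at 114, 127 and 124 CPM against 113, 112 and 121 CPM, a log2 fold change of -0.08 (95% interval -0.25 to 0.10). Exons of NRDE2 on the opposite strand cover 75.8% of its exon bases, so the PSMC1 count is uncertain if strand was not used.

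Of the 14 PSMD genes, 12 had lower values in si-NORAD (49.1% of all genes), and the median log2 fold change was -0.16. There were 4 at an unadjusted p under 0.05, all lower (12.1% of all genes). PSMD6, a subunit of the lid, was at 55.7, 62.3 and 64.1 CPM in si-NC and 50.7, 51.0 and 48.3 CPM in si-NORAD, for a log2 fold change of -0.28 (95% interval -0.47 to -0.09). It did not overlap, and si-NC 4 lay 9.29% above the highest si-NORAD library. PSMD13, another lid subunit, was at 172, 235 and 242 CPM against 168, 173 and 165 CPM, a log2 fold change of -0.36 (95% interval -0.64 to -0.08), with si-NC 4 inside the si-NORAD range. PSMD10, known as gankyrin, a chaperone of base assembly, was at 76.6, 105 and 93.8 CPM against 73.4, 73.9 and 74.7 CPM, a log2 fold change of -0.31 (95% interval -0.56 to -0.06). The large scaffold subunit PSMD1 was at 197, 211 and 200 CPM against 203, 202 and 212 CPM, a log2 fold change of 0.02 (95% interval -0.15 to 0.18). PSMD11, a lid subunit, was at 361, 365 and 340 CPM against 370, 369 and 379 CPM, higher in si-NORAD without overlap, at a log2 fold change of 0.07 (95% interval -0.10 to 0.23).

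The 5 genes of the alternative caps and the inhibitor had a median log2 fold change of -0.01, with 3 lower (49.1% of all genes) and 2 higher in si-NORAD. PSME1 and PSME2 form the interferon-inducible PA28 alpha-beta cap. PSME1 was at 99.3, 128 and 151 CPM in si-NC and 94.7, 90.9 and 93.6 CPM in si-NORAD, for a log2 fold change of -0.44 (95% interval -0.74 to -0.13). PSME2 was at 77.5, 95.7 and 115 CPM against 70.7, 73.3 and 71.6 CPM, a log2 fold change of -0.42 (95% interval -0.71 to -0.13). Neither overlapped between groups, with si-NC 4 nearest to si-NORAD in both. PSME3, the nuclear PA28 gamma cap, was at 362, 359 and 344 CPM against 360, 353 and 347 CPM, with overlap and a log2 fold change of -0.01 (95% interval -0.17 to 0.16). PSME4, the large cap PA200, was at 89.2, 82.1 and 78.2 CPM against 91.5, 91.8 and 91.0 CPM, a log2 fold change of 0.14 (95% interval -0.04 to 0.31). For PSME4 every si-NORAD library was above every si-NC library, and si-NC 4 was again the nearest. The inhibitor PSMF1 had a log2 fold change of 0.01 (95% interval -0.15 to 0.18).

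Assembly chaperones had lower values in 4 of 4 (49.1% of all genes), with a median log2 fold change of -0.37. In 3 of them the groups did not overlap (12.7% of all genes in this direction). PSMG1 and PSMG2 form a dimer that guides alpha ring assembly. PSMG1, with the lowest unadjusted p of the members, 0.00383, was at 47.5, 59.3 and 58.8 CPM in si-NC and 42.8, 41.0 and 43.0 CPM in si-NORAD, for a log2 fold change of -0.38 (95% interval -0.61 to -0.16; edgeR adjusted p = 0.196). PSMG2 was at 36.9, 45.6 and 44.9 CPM against 32.5, 33.6 and 32.8 CPM, a log2 fold change of -0.36 (95% interval -0.59 to -0.14). The lowest si-NC library, si-NC 4, lay 10.5% and 9.60% above the highest si-NORAD library in these genes. PSMG3, which pairs with PSMG4 in another chaperone, was at 41.8, 56.7 and 65.9 CPM against 40.2, 39.7 and 39.2 CPM, a log2 fold change of -0.47 (95% interval -0.79 to -0.14). PSMG4 was at 15.5, 19.3 and 20.6 CPM against 16.4, 17.5 and 18.1 CPM, with overlap and si-NC 4 the lowest library.

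The differences between groups stood beside a split within the si-NC group. si-NC 5 and si-NC 6 lay above the other 4 libraries in 38 of 46 members, against 28% of all genes tested. They lay below them in 1 member, PSME4, against 27.0% of all genes. si-NC 4 lay inside the si-NORAD range in 17 members (37.0%, against 40.6% of all genes). It lay above that range in 16 (34.8% against 29.5%) and below it in 13 (28.3% against 29.9%). Its median difference from the si-NORAD mean was 0.01 on the log2 CPM scale, with 24 of 46 members above that mean (50.7% of all genes). For si-NC 5 and si-NC 6, averaged, the median difference was 0.39, with 42 of 46 members above (49.2% of all genes). In all 14 members that did not overlap in the lower direction, si-NC 4 was the lowest si-NC library, between 1.39% and 10.5% above the highest si-NORAD library. What sets si-NC 4 apart was not tested.

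**Figure D4:**
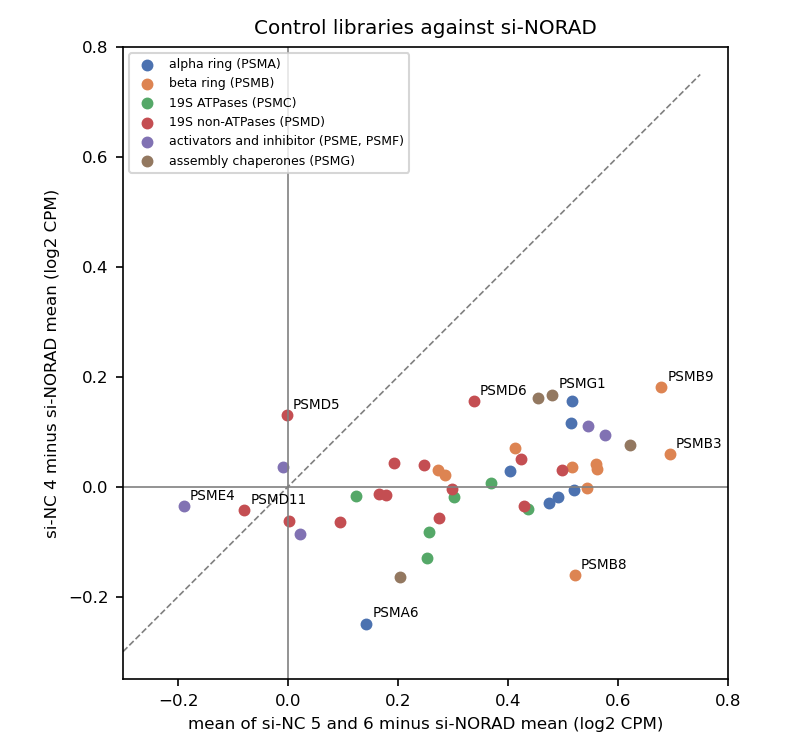
Each point is 1 of the 46 tested proteasome genes; the x axis gives how far si-NC 5 and si-NC 6 lie on average above the si-NORAD mean, the y axis the same for si-NC 4, both in log2 CPM, and the dashed line marks equal differences. The points spread to the right, with a median of 0.39, and lie around 0 on the y axis, with a median of 0.01.

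Leaving out single libraries moved the members' calls accordingly. Without si-NC 4, 35 members were called by edgeR, 34 with lower values and PSME4 with higher values in si-NORAD, where 20.3% of all genes were called lower and 39.3% in either direction. PSMB3 then had an adjusted p of 4.76e-06 and PSMD11 0.261. Without si-NC 5 and si-NC 6, the median log2 fold change of the members was -0.01 and 24 of 46 were lower (49.3% of all genes). PSMG1 and PSMB9 were at -0.17 and -0.18 there, and PSMB3 at -0.06. Leaving out any other single library gave 0 calls among the members. DESeq2 called 5 members on the 6 libraries, all lower in si-NORAD: PSMA3, PSMB3, PSMB9, PSMG1 and PSMG2, with adjusted p from 0.0363 to 0.0487 (1.74% of all genes were called lower and 2.5% in either direction). edgeR with no filter on low counts called 20 of 47, all lower (3.57% of all genes were called lower and 6.56% in either direction), and limma-voom called 0, with 20 members at an unadjusted p under 0.05 (22.1% of all genes).

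Over the 6 libraries, most members had like profiles. The median Pearson r between pairs of members was 0.85 (1035 pairs, 6 libraries each), and 57.3% of the pairs were over 0.8. These pairs share the same libraries and the same split among the si-NC libraries, so they are given as a description. Whether other genes are as alike was not tested. Against the median profile of the others, 4 members had a negative r: PSME4 at -0.98, PSMD11 at -0.74, PSME3 at -0.31 and PSMD5 at -0.20.

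Fold change also went with gene length, in the members and in all genes. Spearman's rho between exon length and log2 fold change was 0.574 over the 46 members (Pearson's r with log2 length 0.589) and 0.384 over all 15515 genes, which share the 6 libraries. The 23 members of 3547 bases or less, such as PSMB3 with 1179 bases, were lower in 23 of 23 with a median log2 fold change of -0.36. All genes up to the median member length were lower in 67.7%, with a median of -0.14. The 23 longer members, from 3582 to 10418 bases, were lower in 19 of 23 with a median of -0.15, against 38.8% and a median of 0.06 for all longer genes. With the trend over length removed from each library, all 46 members had lower values in si-NORAD (54.5% of all genes), the median was -0.25 and rho was 0.0485. In that fit 0 members were called (0.0322% of all genes, in either direction). At an unadjusted p under 0.05 there were 25, all lower, against 21.7% of all genes in either direction and 14.7% lower. The 4 members with higher values in the primary fit were on the lower side there: PSMD1 at -0.00798, PSMD11 at -0.0283, PSME4 at -0.0333 and PSMF1 at -0.0175. The median of the 17 tested PSMA and PSMB genes was -0.37 in the primary fit and -0.28 with the trend removed. That of the 20 PSMC and PSMD genes was -0.16 and -0.15.

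**Figure D5:**
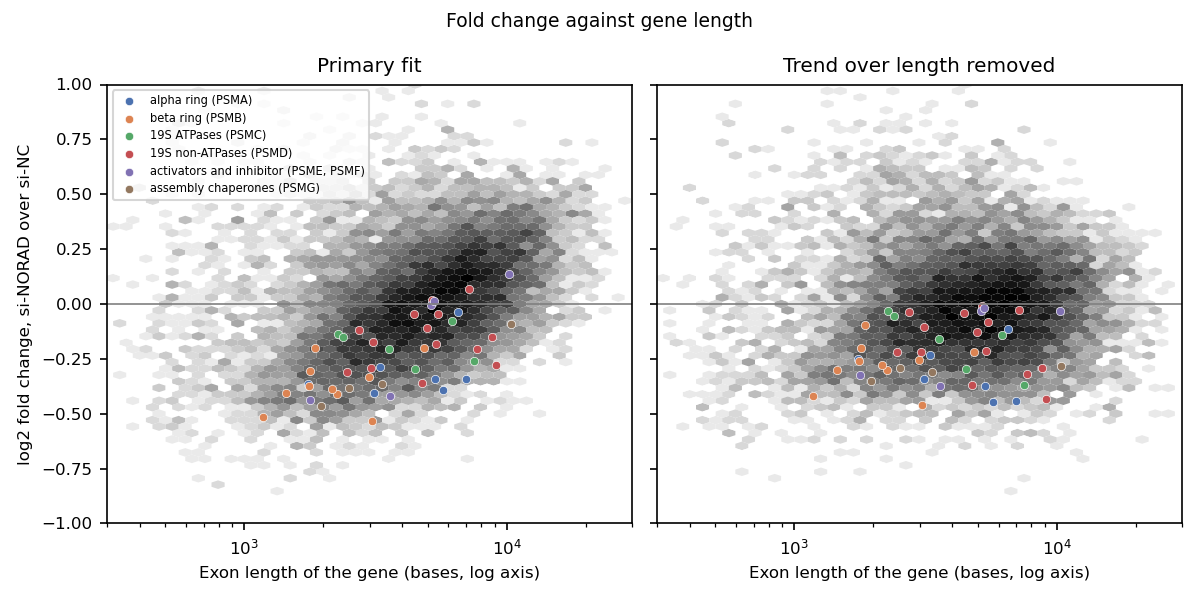
Log2 fold change, si-NORAD over si-NC, against exon length on a log axis, for the proteasome genes (coloured by particle) over the density of all 15515 genes tested (grey), before (left) and after (right) the trend over length was removed. On the left the shorter members lie lower (rho 0.574), and on the right the members lie below 0 at all lengths (rho 0.0485).

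Promoter sequence was looked at because the members share known regulators, chief among them NFE2L1, which binds antioxidant response elements and raises proteasome genes when proteasome activity is low. RefSeq promoter windows of GRCh38.p14, from 250 bases before to 50 after a start site, were matched by symbol for 41 members (50 windows). The letters TGACNNNGC, the core of that element, occurred on either strand in 15 windows (30%) and in 13.3% of all 35116 windows. CCGGAAG, a core of ETS family sites, occurred in 14 member windows (28%) against 10.3%, and CCAAT, the NF-Y box, in 20 (40%) against 34.6%. A match is a run of letters and no evidence of binding. The windows of PSMB3, PSMG1 and PSME4 are shown because all 3 hold the TGACNNNGC letters while their values in the primary fit differ in direction, lower in si-NORAD for PSMB3 and PSMG1 and higher for PSME4. None of the 3 was called there, and with the trend over length removed PSME4 was also lower, at a log2 fold change of -0.0333. The windows are read 5′ to 3′ along the gene, with matches to the motifs on either strand in capitals.
PSMB3, chr17:38752491-38752790, plus strand: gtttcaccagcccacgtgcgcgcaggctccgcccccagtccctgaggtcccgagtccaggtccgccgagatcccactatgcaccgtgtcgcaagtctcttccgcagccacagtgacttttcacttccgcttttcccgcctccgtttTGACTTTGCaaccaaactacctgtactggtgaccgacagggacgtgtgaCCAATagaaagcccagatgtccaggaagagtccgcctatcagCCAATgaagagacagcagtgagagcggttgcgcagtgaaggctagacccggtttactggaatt
PSMG1, chr21:39183402-39183701, minus strand: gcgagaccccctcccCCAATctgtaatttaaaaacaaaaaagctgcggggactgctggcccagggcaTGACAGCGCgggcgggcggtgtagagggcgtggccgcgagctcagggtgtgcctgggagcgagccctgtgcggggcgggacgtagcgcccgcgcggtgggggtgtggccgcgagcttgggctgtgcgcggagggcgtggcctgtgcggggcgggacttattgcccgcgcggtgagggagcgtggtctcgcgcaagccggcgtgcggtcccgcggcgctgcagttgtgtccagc
PSME4, chr2:53970944-53971243, minus strand: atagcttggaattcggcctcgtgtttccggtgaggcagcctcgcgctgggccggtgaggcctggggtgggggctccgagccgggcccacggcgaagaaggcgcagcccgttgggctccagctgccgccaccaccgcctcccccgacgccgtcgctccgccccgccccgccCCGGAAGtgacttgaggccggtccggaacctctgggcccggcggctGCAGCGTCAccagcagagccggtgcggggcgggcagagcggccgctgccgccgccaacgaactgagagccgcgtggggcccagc
In the PSMB3 window TGACTTTGC is the TGACNNNGC match, beside 2 CCAAT boxes. The PSMG1 window has TGACAGCGC and 1 CCAAT box. The PSME4 window has CCGGAAG and, on the other strand, the element that reads GCAGCGTCA here.

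Genes that work with the proteasome were followed in 6 lists, whose counts stand beside 49.1% of all genes lower and 21.6% at an unadjusted p under 0.05. Of 17 partners outside the symbol rule, 0 were called by edgeR, 11 were lower, 5 had an unadjusted p under 0.05 (4 lower, 1 higher) and the median log2 fold change was -0.07. POMP, the maturation factor of the core, was at 105, 147 and 149 CPM in si-NC and 95.6, 98.7 and 96.3 CPM in si-NORAD, for a log2 fold change of -0.46, and the small 19S subunit gene SEM1 was at -0.45. In both, si-NC 5 and si-NC 6 were the high libraries, and without these the values were -0.11 for POMP and 0.04 for SEM1. The higher gene, named after its values were seen, was the ubiquitin ligase HUWE1, at 512, 368 and 261 CPM against 573, 523 and 544 CPM, a log2 fold change of 0.52 and 0.09 without si-NC 5 and si-NC 6. Of the 6 ubiquitin and E1 genes, 4 were lower, 3 at an unadjusted p under 0.05, with a median of -0.24. RPS27A, which encodes ubiquitin fused to a ribosomal protein, was at 1005, 1519 and 1526 CPM against 899, 910 and 897 CPM (log2 fold change -0.58, and -0.16 without si-NC 5 and si-NC 6).

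The remaining lists had medians near 0. Of 8 tested receptors and shuttles, 2 were lower, 1 had an unadjusted p under 0.05 and the median was 0.06. DDI2, the protease that activates NFE2L1, had a log2 fold change of 0.38. Of 12 genes of VCP, the ATPase that extracts ubiquitinated proteins, and its cofactors, 8 were lower, 1 had an unadjusted p under 0.05 and the median was -0.08. UBXN1 was at -0.33 and UBXN4 at 0.18. Of 11 transcription genes, 5 were lower, 2 had an unadjusted p under 0.05 and the median was 0.02. NFE2L1 was at 273, 248 and 218 CPM in si-NC and 290, 280 and 302 CPM in si-NORAD, higher without overlap, at a log2 fold change of 0.24 (95% interval 0.03 to 0.45; edgeR adjusted p = 0.211), and STAT3 was also at 0.24. Of 12 antigen processing genes, 6 were lower, 3 had an unadjusted p under 0.05 and the median was -0.01. NLRC5, an activator of MHC class I genes, was at 5.67, 5.59 and 5.54 CPM in si-NC and 8.60, 9.15 and 6.89 CPM in si-NORAD, for a log2 fold change of 0.56. B2M, the light chain of MHC class I, was at 296, 388 and 401 CPM against 257, 292 and 265 CPM, a log2 fold change of -0.42. Without si-NC 5 and si-NC 6 the log2 fold changes were 0.05 for DDI2, 0.07 for UBXN1, 0.07 for UBXN4, 0.09 for NFE2L1, 0.08 for STAT3 and -0.13 for B2M. UBXN1 turned in direction there, and NLRC5 was at 0.55, close to its value in the primary fit. With the trend over length removed, NLRC5, with 12386 exon bases, was at 0.35. HUWE1 was then at 0.28, DDI2 at 0.19, NFE2L1 at 0.19, UBXN4 at 0.16 and STAT3 at 0.11. The lower genes were then at -0.68 for SEM1, -0.51 for RPS27A, -0.48 for B2M, -0.36 for POMP and -0.23 for UBXN1. In these 6 lists edgeR called 0 genes, while DESeq2 called POMP, RPS27A, B2M and NLRC5.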

How the data were processed

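RNA sequencing counts of 6 A549 libraries, 3 si-NC and 3 si-NORAD, were analysed, grouped by the treatment in the labels. Per the labels' protocols, ribosomal RNA was depleted and a directional kit was used. The submitters' processing notes name the build GRCh38 and the tools HTSeq 0.6.1, HISAT2 and FastQC. The authors deposited whole-number read counts without normalization and FPKM values for the same genes. The ratio of count to FPKM fixed a single length for each gene in 100% of values, within 0.1%, and for the 47 members that length equals the summed exons of GENCODE 29. No source used here gives the strand setting or the treatment of reads that fit several genes. The members, lists and tests were chosen with earlier results of these data known.

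Genes passing filterByExpr (15515) were scaled with TMM and tested with edgeR 4.0.16 (quasi-likelihood, robust, two-sided, R 4.3.3), with Benjamini-Hochberg adjustment over all of them and a threshold of 0.05. This is the primary fit. Members were read from that table. CPM uses TMM-scaled totals, and the log2 CPM values use a prior count of 2. Values are given per library for the catalytic subunits and, in each particle, for the 3 members with the lowest p and the 1 with the highest. The values of PSMD11 were added after they were seen. Each pathway list gives up to 2 genes with the lowest p; not every gene that this rule takes is reported here. Alternatives were RLE and upper quartile scaling, no low-count filter, 1 CPM in 3 libraries, DESeq2 1.42.0, limma-voom and limma 3.58.1 on log2 of FPKM plus 1 or 0.1, a replicate block, the trend over length removed (loess, span 0.3), each library left out, and si-NC 5 and si-NC 6 left out, for which effect sizes alone are given. Leaving out the 5 members with shared coding bases was added after seeing the data. The fitting was also run on simulated counts, drawn with no split among the si-NC libraries and no trend over length. That run therefore cannot show how the fit behaves under these features. Other cell types were checked by markers: the 2 blood and 2 endothelial genes found reached at most 0.0507 and 0.177 CPM, and the 2 fibroblast genes summed to 6.88 to 10.5 CPM.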

Additional observations from a re-analysis of the deposited data

How the results depend on the processing

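RLE and upper quartile scaling, the 1 CPM filter and limma-voom changed no direction and no call among the results given. Genes called in all numbered 1 in the primary fit, 1935 with no low-count filter, 388 with DESeq2, 3 with log2 of FPKM plus 1 and 3 with FPKM plus 0.1, 5 with the length trend removed, and 0 to 6251 with 1 library left out, the highest without si-NC 4. Members called numbered 20 with no low-count filter, 5 with DESeq2 and 0 to 35 with 1 library left out, the highest without si-NC 4. The median log2 fold change of the members was -0.0134 without si-NC 5 and si-NC 6, between -0.39 and -0.18 with 1 library left out, and -0.29 without the 5 members that share over 50% of their coding bases, of which 0 of 41 were called. NORAD passed the threshold with no low-count filter (-0.35) and without si-NC 4 (-0.23), and its range with 1 library left out was -0.42 to -0.23. Without si-NC 5 and si-NC 6 it was at -0.55.

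The labels do not state that same-numbered libraries are pairs, so the primary fit took none. Same-numbered libraries also did not deviate together (correlations of -0.03, -0.02 and -0.07). With the replicate block 2 genes were called in all, 0 of them members, and the member median was -0.28.

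Directions turned as follows. Without si-NC 5 and si-NC 6 the PSMA median was 0.00719, the PSMC median 0.0314 and the PSMD median 0.00945, and the values were 0.25 for PSMA6, 0.00719 for PSMA7, 0.00248 for PSMB4, 0.16 for PSMB8, 0.0147 for PSMC1, 0.0179 for PSMC2, 0.0449 for PSMC5 and 0.16 for PSMG4. In the FPKM fits the median of the PSME and PSMF genes was 0.0539 with FPKM plus 1, with or without the filter, and 0.0546 with plus 0.1, as was PSME3, and PSMA6 was at 0.0137 with plus 1 and no filter. With the length trend removed PSMD1 was at -0.00798, PSMD11 at -0.0283, PSME4 at -0.0333 and PSMF1 at -0.0175. With 1 library left out the ranges were -0.0314 to 0.00586 for the PSME and PSMF median, -0.26 to 0.19 for PSMA6, -0.00479 to 0.0484 for PSMD1, -0.0314 to 0.00676 for PSME3 and -0.0229 to 0.0369 for PSMF1. The causes were not tested. PSMB11 had at most 2 reads in a library, and PSMA2, PSMA6, PSMB10 and PSMD9 were counted at 1.35 to 5.73 CPM.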
